A study of Homo sapiens with 4 samples.

Results

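The comparison described here is RC-K8-R against RC-K8, both treated with interleukin-21 (IL-21), across genes. It sets 1 array against 1 array, that is 2 of the 4 arrays of the study. A gene entered when at least 1 of its probes had a value on all 4 arrays, which gave 13446 genes. RC-K8 is an established diffuse large B-cell lymphoma line in which IL-21 leads to apoptosis, and RC-K8-R is the line obtained from it over 10 weeks of culture in rising doses of the cytokine. The sources used here do not give whether RC-K8-R is 1 clone. The 4 groups were RC-K8 untreated, RC-K8 with IL-21, RC-K8-R untreated and RC-K8-R with IL-21, the treatment being 100 ng/mL for 6 h in both lines. Each group has 1 array, so no difference below has an error between cultures and no test was run. A difference counts here when it is 2-fold, a log2 difference of 1 or more in size.

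IL-21 binds a receptor made of IL21R and the shared chain IL2RG. The kinases JAK1 and JAK3 sit on these chains and activate STAT transcription factors, which switch on early genes that include the feedback inhibitors of the SOCS family. In B cells the same cytokine can drive proliferation, differentiation into antibody-secreting cells or death, depending on other signals. MYC is a transcription factor that raises ribosome production and biosynthesis. The unfolded protein response is the set of genes that cells use to fold, check and dispose of proteins in the endoplasmic reticulum, and it is prominent in antibody-secreting cells.

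Treated RC-K8-R had lower levels of the early cytokine-induced genes SOCS3, SGK1, BATF3 and BCL6. It also had lower levels of MYC and of ribosome biogenesis and biosynthesis genes known as MYC targets. It had higher levels of BCL2L1, the gene of the survival protein BCL-XL, of the antigen receptor chain CD79B and the kinase TEC, of 8 of 24 B cell transcription factors, PAX5 among them, and of chaperones and disposal factors of the endoplasmic reticulum. Of the 13446 genes, 1004 (7.47%) were 2-fold higher and 1389 (10.3%) 2-fold lower in RC-K8-R with IL-21, together 17.8%. These shares are the background for the counts of gene lists that follow, and 48.5% of all genes had a difference above 0. Some genes belong to several lists, so the counts of different lists are not independent.

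The promoters of 3 groups of genes that stand out below are shown first, as RefSeq sequence of GRCh38.p14. Each has the 250 bases before an annotated start of the gene. BCL6 has 2 promoter entries, and only the entry that holds the motif is shown. BCL6 (chr3:187745469-187745718, minus strand) and IRF1 (chr5:132490774-132491023, minus strand) stand for the early cytokine-induced genes. Capitals mark the palindrome TTCNNNGAA, which STAT factors are known to bind. Both genes were picked as members that hold it, and SOCS3 and SGK1 did not hold it in this window.
BCL6: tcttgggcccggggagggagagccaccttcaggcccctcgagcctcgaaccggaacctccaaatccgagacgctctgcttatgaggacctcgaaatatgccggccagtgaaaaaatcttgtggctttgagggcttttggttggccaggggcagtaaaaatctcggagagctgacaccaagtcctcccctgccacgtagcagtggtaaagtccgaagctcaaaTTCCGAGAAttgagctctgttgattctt
IRF1: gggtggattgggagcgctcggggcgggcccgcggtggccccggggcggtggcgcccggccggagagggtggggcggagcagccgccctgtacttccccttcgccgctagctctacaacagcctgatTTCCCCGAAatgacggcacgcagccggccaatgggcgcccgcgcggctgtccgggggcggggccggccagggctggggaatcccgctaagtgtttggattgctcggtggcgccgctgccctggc
ODC1 (chr2:10448013-10448262, minus strand) and DDX21 (chr10:68956397-68956646, plus strand) stand for the MYC targets. Capitals mark the E-box CACGTG, to which MYC binds with its partner MAX.
ODC1: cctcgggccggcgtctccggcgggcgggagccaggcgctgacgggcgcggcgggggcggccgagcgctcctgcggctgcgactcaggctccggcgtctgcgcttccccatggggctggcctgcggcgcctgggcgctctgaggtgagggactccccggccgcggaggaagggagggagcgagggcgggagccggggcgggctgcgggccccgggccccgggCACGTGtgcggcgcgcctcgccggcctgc
DDX21: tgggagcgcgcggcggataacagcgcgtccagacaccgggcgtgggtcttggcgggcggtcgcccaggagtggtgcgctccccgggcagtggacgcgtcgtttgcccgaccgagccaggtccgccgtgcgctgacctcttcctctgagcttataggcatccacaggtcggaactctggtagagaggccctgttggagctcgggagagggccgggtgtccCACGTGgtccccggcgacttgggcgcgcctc
HSPA5 (chr9:125241344-125241593, minus strand) and HSP90B1 (chr12:103930160-103930409, plus strand) stand for the genes of the endoplasmic reticulum. Capitals mark the endoplasmic reticulum stress element, CCAAT and CCACG with 9 bases of any kind between them, known from chaperone promoters. HSP90B1 holds it on both strands.
HSPA5: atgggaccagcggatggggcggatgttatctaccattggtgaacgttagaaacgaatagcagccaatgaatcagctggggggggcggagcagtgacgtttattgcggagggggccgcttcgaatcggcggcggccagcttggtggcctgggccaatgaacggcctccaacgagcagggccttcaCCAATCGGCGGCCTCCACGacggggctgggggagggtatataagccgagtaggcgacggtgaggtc
HSP90B1: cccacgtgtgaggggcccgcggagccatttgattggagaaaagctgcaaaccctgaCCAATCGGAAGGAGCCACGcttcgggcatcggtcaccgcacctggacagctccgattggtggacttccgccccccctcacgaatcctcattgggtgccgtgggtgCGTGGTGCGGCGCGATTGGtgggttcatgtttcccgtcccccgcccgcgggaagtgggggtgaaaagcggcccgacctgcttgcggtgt

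The marked stretch begins 28 bases before the start shown for BCL6, 124 before that of IRF1, 29 before that of ODC1 and 31 before that of DDX21. It begins 66 bases before the start of HSPA5, and in HSP90B1 the matches begin 194 and 89 bases before it. Motifs were searched on both strands, and capitals mark only the motif a gene is shown for. The stress element ends in letters that an E-box can share, but no printed match overlaps another. A promoter sequence was at hand for 10692 of the genes, and a gene with several entries counted as holding a motif when any entry did. The STAT palindrome stood in 7.4% of the genes with a promoter sequence, in 7.44% of those 2-fold higher and in 8.62% of those 2-fold lower. The E-box stood in 10.9% of them, in 10.8% of the higher and 10.4% of the lower genes. The stress element stood in 16 genes (0.15%), of which 7 were 2-fold higher and 0 lower. Over all 35116 promoter entries the shares were 6.57%, 6.34% and 0.074%. A match describes letters in a window and does not show binding.

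The arrays themselves differed in a way that bears on every list. Values are ratios to a common human reference RNA, so a level below is the centred log2 ratio of a gene to that reference. Levels of different genes are not set against each other. The SD of the log2 ratios over probes was 1.30 on the RC-K8 array with IL-21 and 1.54 on the RC-K8-R array, and their correlation across 23260 probes was 0.85. Probes are not independent replicates. Differences therefore moved with level: the median difference was -0.72 for the 272 genes with a mean level under -4 and 1.11 for the 52 genes at 4 or more, and 55.8% of the latter were 2-fold higher. A loess correction removes this trend with level from the differences. Where it turns a named gene's difference with IL-21 or moves it by more than 1.5 times, the corrected value is given beside it, and the part of the trend in those differences was not tested. RNA was taken from whole cultures, so fewer cells with a transcript and less of it per cell cannot be told apart.

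**Figure D1:**
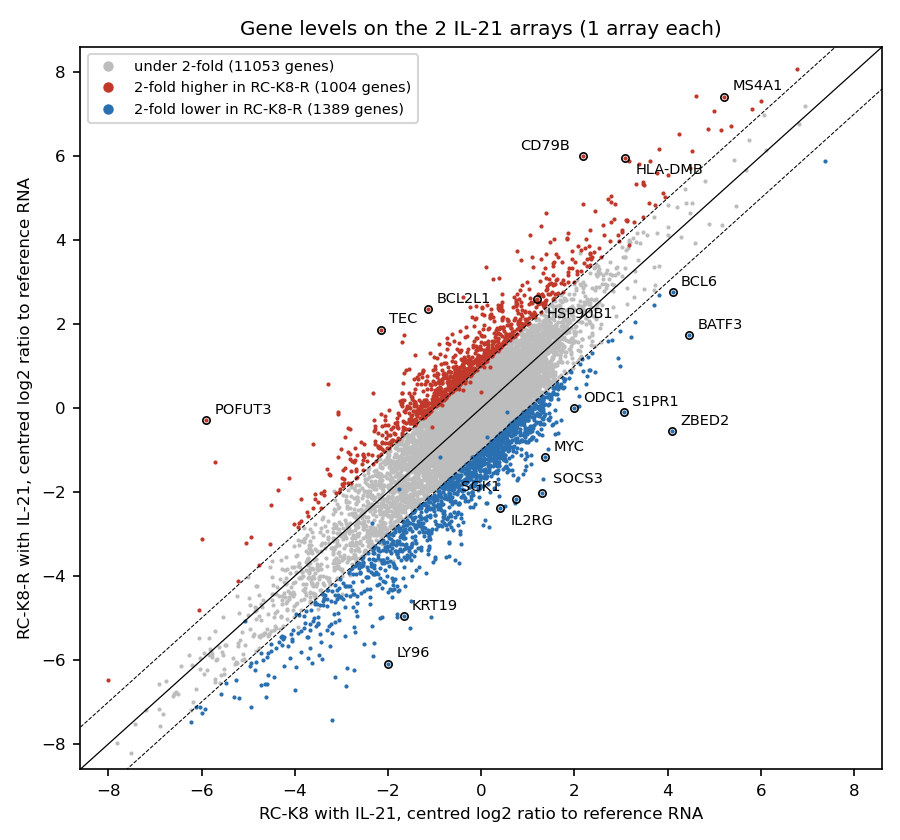
Level of each of 13446 genes on the RC-K8 array with IL-21 (horizontal axis) and on the RC-K8-R array with IL-21 (vertical axis), both as centred log2 ratio to the reference RNA. The solid line is equality and the dashed lines are 2-fold; 1004 genes lie above the upper dashed line and 1389 below the lower one, with SOCS3, SGK1, MYC and S1PR1 far below and POFUT3, TEC, BCL2L1 and CD79B far above.

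**Figure D2:**
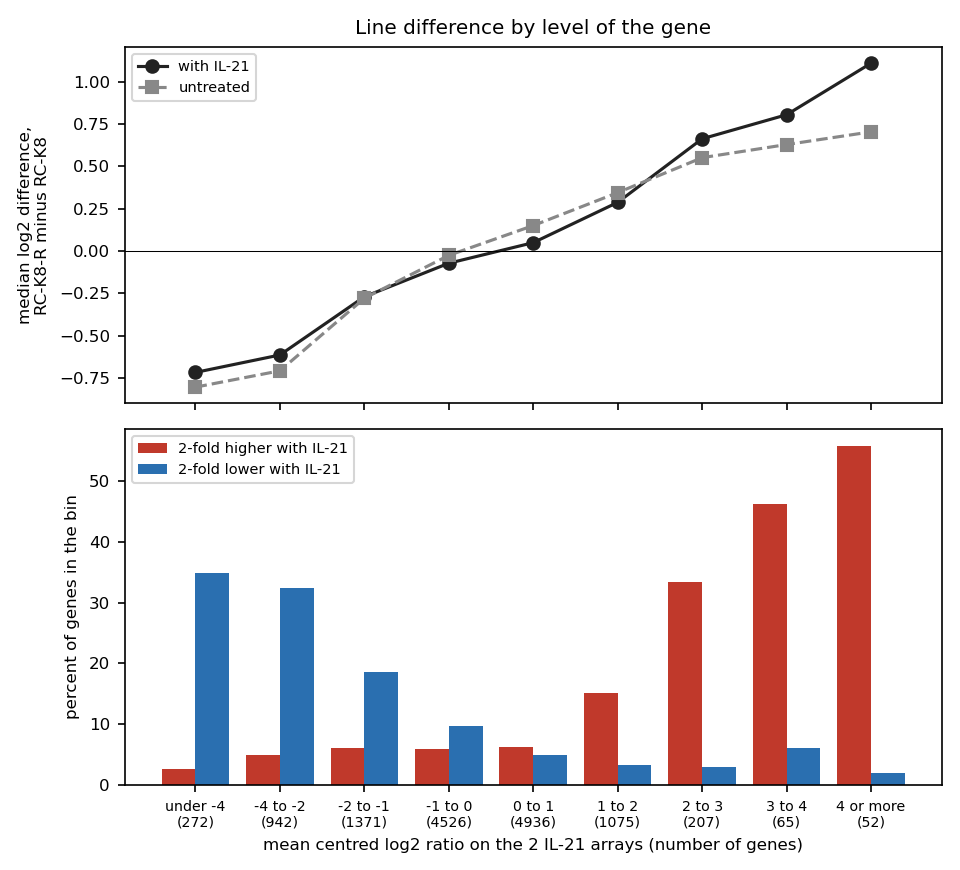
Median log2 difference between the lines (top) and percent of genes at 2-fold with IL-21 (bottom), for genes binned by their mean centred log2 ratio on the IL-21 arrays, with the number of genes in each bin under the axis. The median rises from -0.72 in the lowest bin to 1.11 in the highest, and the untreated arrays show the same trend.

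Genes that cytokines induce through STAT factors were lower in treated RC-K8-R. Of the 26 measured members of that list, 8 were 2-fold lower and 3 higher, with a median of -0.60 against -0.03 over all genes. Without IL-21 the median of the same list was 0.24. SOCS3, the feedback inhibitor of JAK kinases, had levels of -1.82 and 1.31 in RC-K8 without and with IL-21 and of -2.21 and -2.03 in RC-K8-R. Only the RC-K8 array with IL-21 was high, and the difference with IL-21 was -3.35, or 10.2-fold. A further SOCS3 probe, blank on both untreated arrays, gave 0.60 for treated RC-K8 and -0.61 for treated RC-K8-R, a smaller difference of -1.21.

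SGK1, a kinase that promotes cell survival and ion transport, followed the same order. Its levels were -2.54 and 0.74 in RC-K8 and -2.17 and -2.16 in RC-K8-R, a difference of -2.90 with IL-21. BATF3 and BATF are AP-1 family factors of lymphocyte differentiation. BATF3 stood at 1.61 and 4.46 in RC-K8 and at 1.83 and 1.73 in RC-K8-R, a difference of -2.73. BATF stood at 2.02 and 3.70 against 2.49 and 2.46, a difference of -1.24 (-2.11 after loess). BCL6, the repressor that maintains germinal centre B cells, stood at 2.52 and 4.11 in RC-K8 and at 2.77 on both RC-K8-R arrays. In these genes the untreated arrays of the lines lay close together and the treated RC-K8 array stood above the other arrays.

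The BCL6 difference was -1.34, and -2.28 after loess. IRF1, an interferon-responsive factor, differed by -1.02, with levels of -1.24 and 0.66 in RC-K8 and -0.41 and -0.36 in RC-K8-R. Of the 21 members with a promoter sequence, 4 held the STAT palindrome shown above for BCL6 and IRF1. SOCS3, SGK1, BATF and FOS did not hold it. The other lower members were MYC, described next, and FOS (-1.78, -1.0 after loess), which was far below the reference on all 4 arrays and differed by -1.43 untreated. The 3 members 2-fold higher were BCL2L1, JUNB (1.35) and IRF4 (1.37, and 0.68 after loess), a factor that directs plasma cell differentiation.

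Among the receptor chains, kinases and STAT factors of the pathway, IL2RG and JAK1 differed by 2-fold. IL2RG had levels of 0.80 and 0.41 in RC-K8 and of -2.46 and -2.39 in RC-K8-R, a difference of -2.80 with IL-21, on 1 probe. Both RC-K8-R arrays lay below both RC-K8 arrays. IL21R differed by 0.12, but by -0.75 after loess, and JAK3 by 0.08 (-0.074 after loess). JAK1 was 1.11 higher from probes at 0.36 and 1.86. STAT3 differed by -0.77 as the median of 3 probes, all between -1.09 and -0.74, and by -1.22 after loess, past 2-fold, but a further probe, blank on untreated RC-K8, gave 0.60 in the other direction. Of 10 measured members of this list, 1 was 2-fold higher and 1 lower, and after loess 1 was higher and 2 lower. Among 18 SOCS, PIAS and phosphatase genes the counts were also 1 and 1, SOCS4 (1.34, 0.80 after loess) and SOCS3. SOCS1 differed by -0.41, and by -0.78 after loess. Of 15 chains of other cytokine receptors, 3 were higher, namely IL10RA (2.29, 3 probes), IL6R (1.17) and IFNAR1 (1.05), and CSF2RB (-1.23) was lower.

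**Figure D3:**
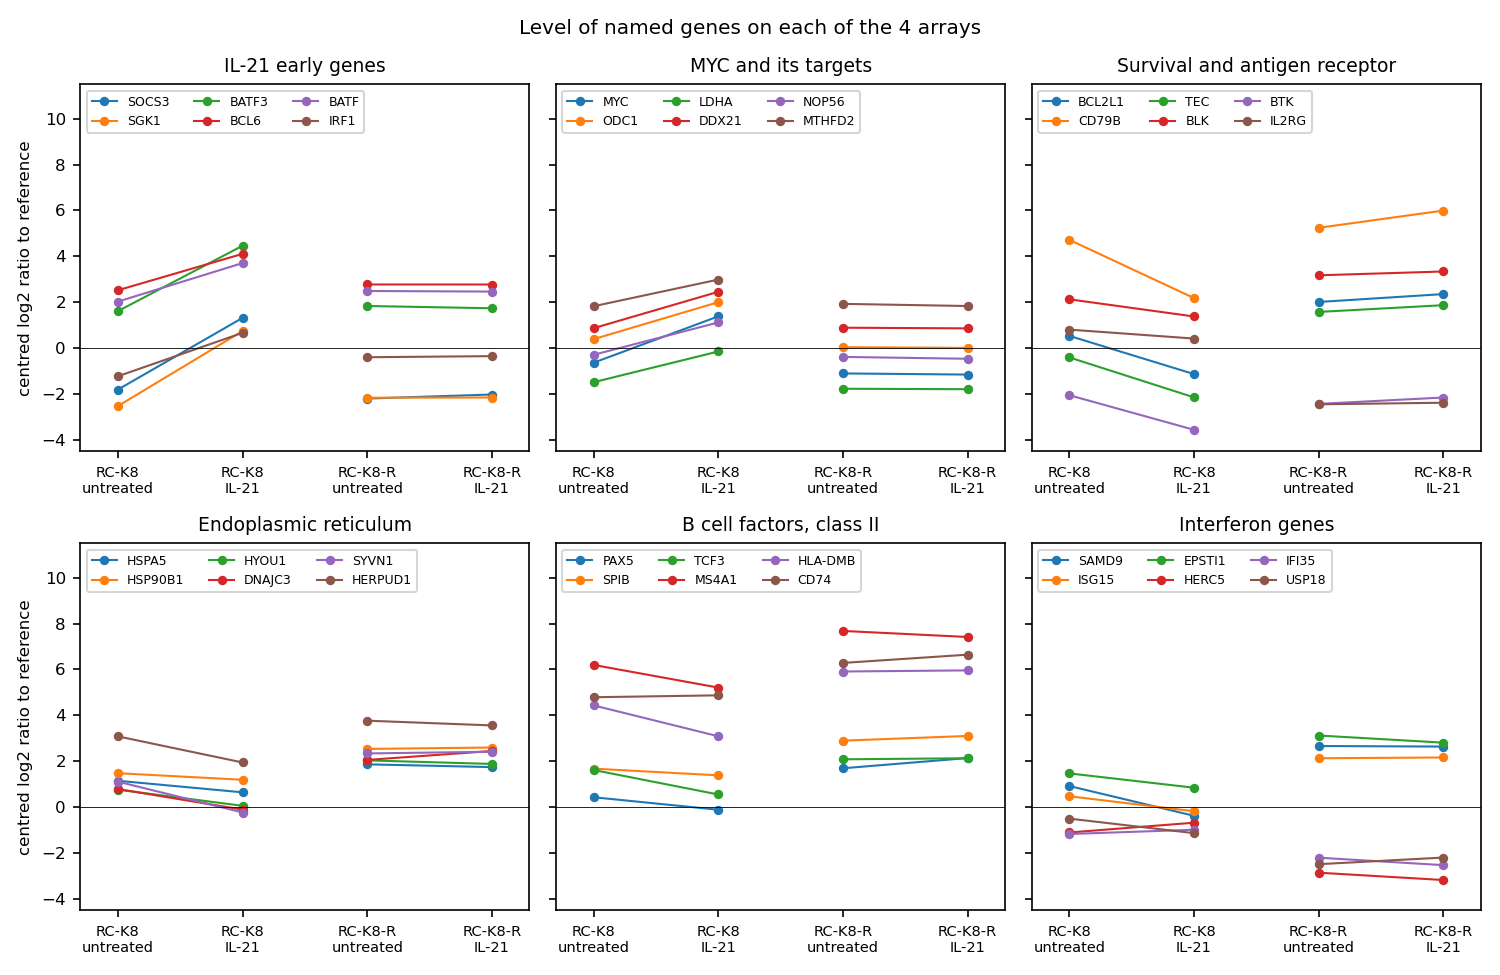
Centred log2 ratio to the reference RNA of 36 genes on each of the 4 arrays, in 6 panels of related genes; each point is 1 array and each line joins the untreated and treated array of 1 line. The early genes and MYC targets are high on the RC-K8 array with IL-21, while IL2RG, the interferon genes and CD74 are set apart by line on both arrays.

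MYC and its targets were lower in treated RC-K8-R. The MYC level was -0.65 and 1.38 in RC-K8 and -1.11 and -1.16 in RC-K8-R, and the difference with IL-21 was -2.63, the median of 3 probes. Its probes gave -3.54, -2.63 and -1.03, all in the same direction. Probe medians of levels and of differences are taken separately, so they need not subtract exactly.

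Of 41 measured MYC targets, 15 were 2-fold lower and 0 higher, and 2 were above 0, with a median of -0.66. Untreated, 26 of them were above 0, where 53.4% of all genes were, and the median was 0.11. After loess 16 were lower and the median was -0.78. ODC1, which makes the first polyamine, stood at 0.38 and 2.0 in RC-K8 and at 0.03 and 0.00 in RC-K8-R, a difference of -2.0. LDHA, the lactate dehydrogenase subunit of glycolytic cells, differed by -1.75 on 3 probes, with levels of -1.50 and -0.15 against -1.78 and -1.80. DDX21, a nucleolar helicase, differed by -1.60 (levels 0.86 and 2.45 against 0.88 and 0.85). In each of these the treated RC-K8 array was the highest of the 4.

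NOP56, a core protein of the particles that modify ribosomal RNA, differed by -1.59 on 3 probes. Further MYC targets at 2-fold were the spermidine synthase SRM (-1.20), WDR43 (-1.20, -1.81 after loess), the mitochondrial folate enzyme MTHFD2 (-1.16, -1.83 after loess), BOP1 (-1.11) and CAD (-1.03), which opens pyrimidine synthesis. Of the 35 targets with a promoter sequence, 12 (34.3%) held the E-box shown above, and of the 13 lower at 2-fold 6 did: ODC1, LDHA, DDX21, SRM, HSPE1 and PRMT3. An E-box near the start is a known feature of many MYC targets. MYC's own network of partners and antagonists did not share the pattern: besides MYC, 10 were measured, and the antagonist MXD3 (1.12) alone was at 2-fold.

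Ribosome biogenesis genes were lower with 14 of 76 at 2-fold, 0 higher and 9 above 0, with a median of -0.52 (-0.68 after loess) against 0.10 untreated. DDX21 and WDR43, already counted as MYC targets, were members here too. WDR12 and GNL2 of large-subunit assembly differed by -1.28 and -1.25, and RRP12 of pre-ribosome export by -1.27. RRP9 and WDR3 of the small-subunit processome were both at -1.17. The genes that make the ribosome itself went otherwise. Of 68 cytosolic ribosomal protein genes 0 were at 2-fold, 65 were above 0 and the median was 0.26 (0.02 after loess), and untreated it was 0.34. Of 76 mitochondrial ribosomal protein genes MRPS23 (-1.03) alone was at 2-fold, with a median of -0.20.

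Of 36 genes of polyamine, nucleotide and one-carbon synthesis 7 were lower. ODC1, SRM, MTHFD2 and CAD, already counted as MYC targets, were among them. So were PSAT1 of serine synthesis (-1.39), CTPS1 (-1.04) and PFAS (-1.03). In this list 1 was higher, CTPS2 (1.39), a paralog of CTPS1. The list's median was -0.45. Of 22 glycolysis genes 3 (13.6%) were lower, near the 10.3% of all genes. These were LDHA, counted above as a MYC target, the hexokinase HK2 (-1.75, 2 probes) and the enolase ENO1 (-1.17). The muscle phosphofructokinase PFKM (1.03) was higher. The median of the glycolysis list was -0.15, and 0.04 after loess.

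HK2 stood at -1.68 and 0.12 in RC-K8 and at -1.41 and -1.63 in RC-K8-R, so the treated RC-K8 array was again the high one. Among amino acid transporters the glutamine carrier SLC1A5 (-1.39) and SLC3A2 (-1.10), the heavy chain of the leucine exchanger, were lower. The cationic carrier SLC7A1 (1.21, 0.40 after loess) and SLC1A4 (1.14) were higher. Aminoacyl-tRNA synthetases had WARS1 (-1.15) at 2-fold of 19, with 2 above 0 and a median of -0.37. Chaperones outside the endoplasmic reticulum had HSPE1 (-1.11) and DNAJC2 (-1.10) lower and DNAJB1 (1.32) higher of 27, with a median of -0.35. Of 26 cholesterol and fatty acid genes FADS1 (-1.17) was at 2-fold.

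BCL2L1 was the survival gene with the widest gap between the treated lines among those listed. Its levels were 0.53 and -1.14 in RC-K8 and 2.01 and 2.35 in RC-K8-R, and the difference with IL-21 was 3.49, or 11.3-fold, from probes at 2.95 and 4.03. All RC-K8-R values lay above all RC-K8 values, and the gap was 1.48 without IL-21. The other anti-apoptotic gene at 2-fold of 13 was the cochaperone BAG3 (1.04). BCL2 itself had probes of opposite sign, -0.57 and 0.58, and their median was -0.49 after loess.

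Of 12 pro-apoptotic BCL2 family genes, BAD (1.11) and BNIP3L (1.01) were higher and BOK (-1.43) lower. BCL2L11, which encodes BIM, differed by -0.26 as the median of probes between -1.127 and -0.105. Its probe with the highest mean level gave -1.127, past 2-fold. Among 19 death receptor and caspase genes the inflammatory caspases CASP1 (-2.28) and CASP4 (-1.30) were lower, and the death receptor TNFRSF21 (1.65) was higher. Of 21 p53 targets 1 was at 2-fold, SESN2 (-1.13), and of 8 SGK, PIM and AKT kinases 1, SGK1. CDKN1B, the cell cycle inhibitor p27, was 1.70 higher on 2 probes, with levels of -0.86 and -1.49 in RC-K8 and 0.07 and 0.21 in RC-K8-R. The inhibitor CDKN2B (-1.31) was lower, and of 6 such genes 1 was higher and 1 lower.

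Cell cycle genes were close between the treated lines. POLE2 (-1.54) was the 1 of 41 DNA replication genes at 2-fold, with 8 above 0 and a median of -0.30. MAD2L1 (-1.07) was the 1 of 33 mitosis genes, whose median was -0.03.

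Components of B cell antigen receptor signalling were higher, with 9 of 25 at 2-fold and 0 lower. CD79B, a signalling chain of the receptor, had levels of 4.72 and 2.18 in RC-K8 and of 5.24 and 6.00 in RC-K8-R. The treated RC-K8 array was the low one, the difference with IL-21 was 3.82, and it was 0.53 untreated. TEC, a kinase of the BTK family, had -0.41 and -2.16 in RC-K8 and 1.57 and 1.87 in RC-K8-R, a difference of 4.02. For TEC both RC-K8-R arrays lay above both RC-K8 arrays.

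BTK, the kinase that links the receptor to calcium signalling, lay far below the reference, at -2.06 and -3.58 in RC-K8 and -2.44 and -2.16 in RC-K8-R, and differed by 1.41. BLK, a Src family kinase of B cells, differed by 1.96 (1.30 after loess), with 2.12 and 1.37 against 3.17 and 3.34. Further members were VAV2 (2.14), SH3BP5 (1.58), PIK3CD (1.04), CD79A (1.02, 0.65 after loess) and RASGRP3 (2.08, 0.78 after loess). The median of the list was 0.42 with IL-21 and 0.45 without, and after loess it was 0.10 with 6 higher and 1 lower. BLNK, the adaptor of the same pathway, was measured in treated RC-K8-R alone (3.36). IGHM, a heavy chain gene of the receptor, was blank there and went the other way untreated. It stood at 1.065 and 1.039 in RC-K8 and at -0.835 in untreated RC-K8-R.

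B cell transcription factors were higher in 8 of 24, and EBF1 (-1.21) was lower. IRF8 (-1.72), blank on untreated RC-K8 and so not among the 24, was lower too. With probes that had a value on both IL-21 arrays, 8 of 25 were higher and 2 lower. PAX5, which maintains B cell identity, stood at 0.42 and -0.12 in RC-K8 and at 1.69 and 2.13 in RC-K8-R, a difference of 2.26 on 2 probes. SPIB, an Ets factor of B cells, differed by 1.72 (1.12 after loess) and TCF3, the E protein E2A, by 1.58. MEF2C (1.45), BCL11A (1.32), FOXO1 (1.26, 0.75 after loess), ETS1 (1.07) and SPI1 (1.04) followed. The median of the list was 0.32, and 0.35 after loess with 5 higher and 4 lower. Among 9 B cell markers 7 were higher, including MS4A1, the gene of CD20 (2.21, 0.86 after loess), at 6.20 and 5.21 against 7.68 and 7.42. The other higher markers, CD79A, CD79B, BLK, BTK, PAX5 and SPIB, were already counted in the lists above, and so was EBF1. EBF1 was the 1 marker 2-fold lower, and the median was 1.72. After loess 5 markers were higher and 2 lower, with a median of 1.12.

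Germinal centre and plasma cell genes were each split by member. Of 16 germinal centre genes 6 were higher and 2 lower. GCSAM, which restrains motility of germinal centre B cells, stood at 2.57 and 1.39 in RC-K8 and at 4.48 and 4.65 in RC-K8-R, a difference of 3.26. ELL3 (1.62, 0.80 after loess), SSBP2 (1.45), BCL7A (1.44, 0.80 after loess), ITPKB (1.33) and NEIL1 (1.14) were higher, while BCL6 and the receptor S1PR2 (-1.17) were lower. Of 17 plasma cell genes 6 were higher and 0 lower, among them the antibody chain JCHAIN (1.83), MZB1 (1.73) and CAV1 (1.80). JCHAIN lay far below the reference on every array, at -4.43, -5.05, -3.17 and -3.22, RC-K8 first. PRDM1, the regulator of that program, was measured on 1 array, that of treated RC-K8 (1.47).

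Genes of MHC class II, which presents peptides to helper T cells, were higher in 9 of 19 and lower in 0, but the count rests on the scaling. The median of 0.98 became 0.00 after loess, with 2 higher and 2 lower. HLA-DMB, which loads peptides, was 2-fold higher either way. Its levels were 4.43 and 3.08 in RC-K8 and 5.91 and 5.96 in RC-K8-R, a difference of 2.88, and 1.78 after loess. CD74, the invariant chain, differed by 1.77 (0.51 after loess) and HLA-DRB1 by 1.64 (0.97 after loess). HLA-DRA differed by 1.30 but by -0.18 after loess, and HLA-DQB1 by 1.11 but by -0.27 after loess. Probes for HLA genes can bind alleles and paralogs unequally, and such values are uncertain.

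Of 16 genes of class I and its peptide supply 4 were higher, namely PDIA3 (1.24, 3 probes), CALR (1.20), ERAP1 (1.14) and HLA-B (1.01, 3 probes), and 15 were above 0. Their median was 0.73, and 0.48 after loess. Costimulation and adhesion genes had 4 of 21 higher, SLAMF1 (1.30), CD40 (1.18), CD274 (1.12), which encodes PD-L1, and CD70 (1.0). After loess these were at -0.09, 0.22, 0.61 and 0.54.

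Genes of the endoplasmic reticulum were higher in treated RC-K8-R. In the list of ATF4 targets and unfolded protein response genes 12 of 26 were higher and 4 lower, and the median was 0.86, against 0.60 untreated. After loess 6 were higher and 4 lower, with a median of 0.65. The 12 higher genes are chaperones, disulfide enzymes and disposal factors of the endoplasmic reticulum and the factor XBP1. DNAJC3, a cochaperone of the compartment, stood at 0.78 and -0.12 in RC-K8 and at 2.05 and 2.44 in RC-K8-R, a difference of 2.56. HYOU1, a large chaperone, stood at 0.75 and 0.05 against 2.03 and 1.88, a difference of 1.83. In both genes the RC-K8-R arrays lay above the RC-K8 arrays, and the treated RC-K8 array was the lowest.

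HERPUD1 (1.62, 0.84 after loess), PDIA4 (1.61), SDF2L1 (1.49), EDEM1 (1.45, 0.80 after loess), HSP90B1 (1.41, 0.90 after loess), MANF (1.27), XBP1 (1.21), CALR (1.20), HSPA5 (1.10) and PDIA6 (1.03) made up the rest. HSPA5, the chaperone BiP, had levels of 1.14 and 0.64 in RC-K8 and of 1.86 and 1.74 in RC-K8-R. The 4 lower genes have roles other than folding or disposal, and the ATF4 targets of the list were not counted apart. ASNS (-1.25, -2.01 after loess) makes asparagine, SESN2 (-1.13, -1.73 after loess) and DDIT4 (-1.67) restrain growth signalling, and VLDLR (-1.17, -0.74 after loess) is a lipoprotein receptor.

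Outside the list, SYVN1, the ubiquitin ligase that removes misfolded proteins, stood at 1.10 and -0.24 in RC-K8 and at 2.34 and 2.41 in RC-K8-R, a difference of 2.65 on 2 probes. UBE2J1, the conjugating enzyme of the same disposal route, differed by 2.96, with 1.84 and 0.78 against 3.76 and 3.74. SEL1L, the partner of SYVN1, was blank on untreated RC-K8 and differed by 1.13. Of the 16 genes with the stress element shown above for HSPA5 and HSP90B1, 15 were above 0 with IL-21, and their median was 0.62. Those 2-fold higher were HSP90B1, FICD (1.35), XBP1, CALR, HSPA5, PDIA6 and TMEM120A (1.01). Untreated, SYNPO (-0.65) and ALG12 (-0.295) were below 0 and the rest of the 16 were above 0. The element stood in 5 of the 12 higher members of the list (41.7%), all among the 2-fold higher genes just named. Of all 26 members of the list, 7 (26.9%) held it.

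**Figure D4:**
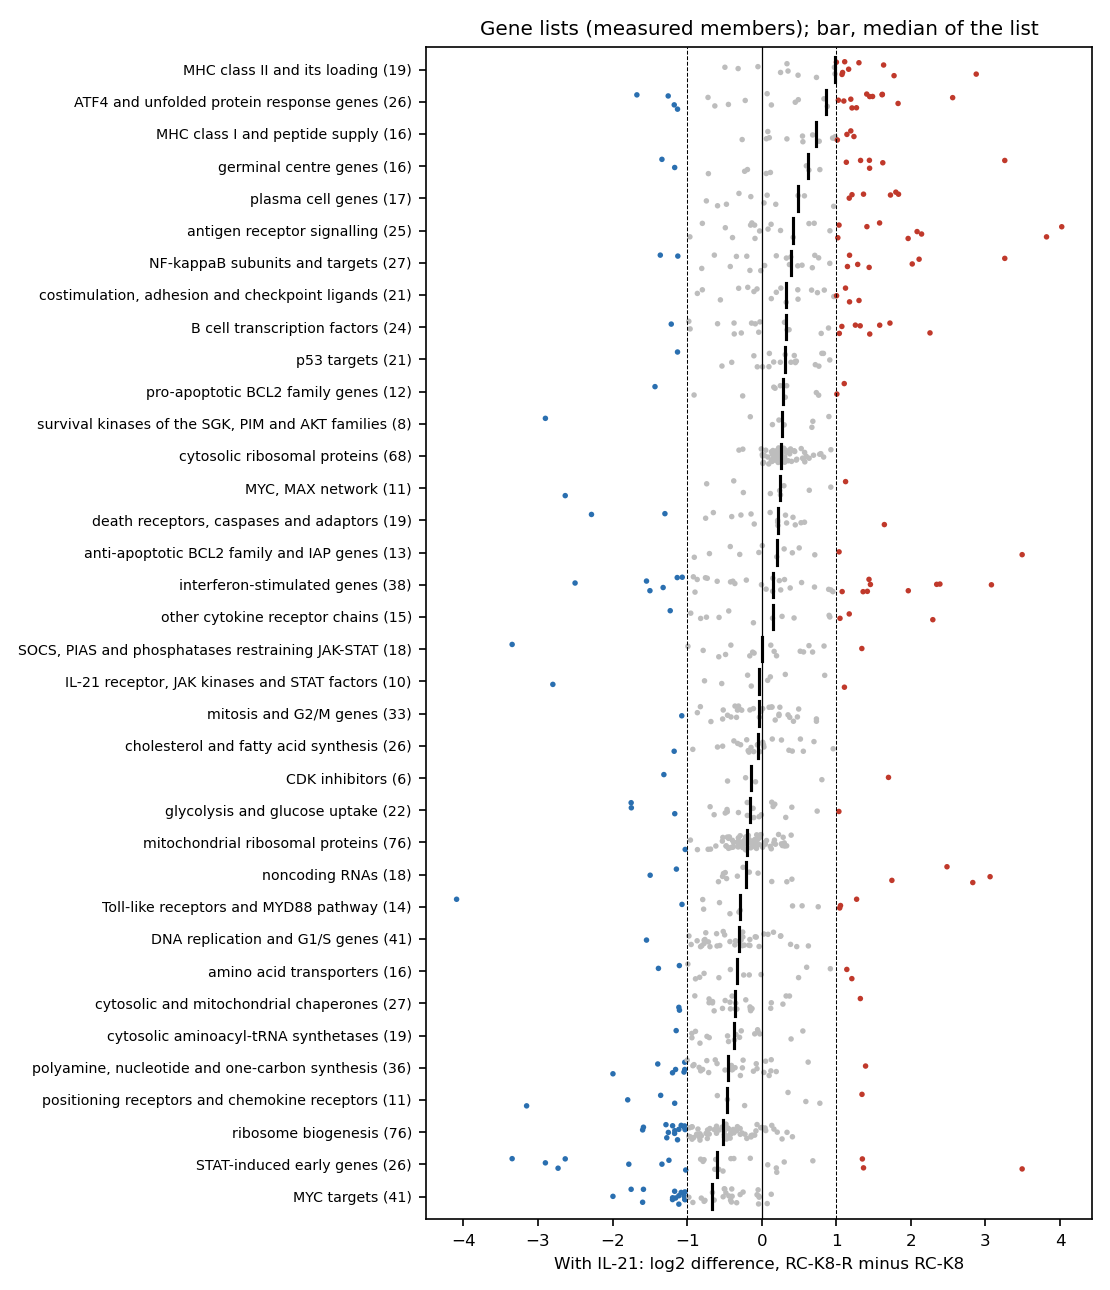
Log2 difference between RC-K8-R and RC-K8 with IL-21 (horizontal axis) for each measured member of 36 gene lists, ordered by the median (black bar), with the number measured in brackets; red is 2-fold higher, blue 2-fold lower. MYC targets, STAT-induced genes and ribosome biogenesis lie lowest. MHC class II, whose median goes to 0.00 after loess, and the pooled list of ATF4 and unfolded protein response genes lie highest.

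NF-kappaB genes had 7 of 27 higher and 2 lower, with a median of 0.39 that turned to -0.05 after loess. NFKBIE, an inhibitor of the pathway and one of its targets, had levels of 1.44 and 0.10 in RC-K8 and of 3.17 and 3.36 in RC-K8-R, a difference of 3.26. The cytokines LTB (2.02) and TNF (2.11, 1.16 after loess), the subunit RELB (1.44) and TNIP1 (1.29) were higher, as were CD40 and TRAF1 (1.15, 0.14 after loess). The chemokines CCL4 (-1.36) and CXCL8 (-1.12, -0.67 after loess) were lower.

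Interferon-stimulated genes went both ways, with 9 of 38 higher and 6 lower. SAMD9, an antiviral factor, had levels of 0.91 and -0.39 in RC-K8 and of 2.66 and 2.63 in RC-K8-R, a difference of 3.08 on 3 probes that lay between 2.69 and 3.67. SAMD9L (2.39), ISG15 (2.35), EPSTI1 (1.97), SP110 (1.46), IFIH1 (1.44, 0.91 after loess), BST2 (1.42), IFIT1 (1.36) and OAS1 (1.08) were higher. HERC5 (-2.50), IFI35 (-1.54), PARP9 (-1.50), OAS3 (-1.32), GBP4 (-1.13) and USP18 (-1.07) were lower. Untreated, 10 were higher and 9 lower, against 3.35% higher and 10.2% lower of all genes without IL-21. HERC5 and ISG15, an enzyme and the modifier it attaches, thus lay on opposite sides.

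Among 11 positioning and chemokine receptors 4 were lower and 1 higher. S1PR1, which guides lymphocytes out of tissue, had -0.02 and 3.06 in RC-K8 and -0.60 and -0.09 in RC-K8-R, a difference of -3.15. The high value was that of treated RC-K8 alone. CCR9 (-1.80), S1PR3 (-1.35) and S1PR2 were the others lower, and CCR7, which guides cells to lymph nodes, was higher (1.34, 0.04 after loess).

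Of 14 genes of Toll-like receptors and their adaptors, LY96 (-4.09), the partner of TLR4, and LY86 (-1.07) were lower, and TICAM1 (1.27), IRAK2 (1.06) and TRAF6 (1.05) were higher. LY96 lay far below the reference, at -2.52 and -2.0 in RC-K8 and -4.39 and -6.09 in RC-K8-R. TLR8 was blank on untreated RC-K8-R and stood at 0.80 in treated RC-K8 and at -1.80 in treated RC-K8-R. IRF8, a factor of B cell development, was blank on untreated RC-K8 and stood at 6.11 in treated RC-K8, 4.88 in untreated and 4.39 in treated RC-K8-R, a difference of -1.72.

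Among 18 noncoding RNAs 4 were higher and 2 lower. The host transcript MIR155HG, which gives rise to a microRNA of activated B cells, was lower (-1.50, -2.88 after loess), with 6.92 and 7.37 in RC-K8 and 6.12 and 5.88 in RC-K8-R. SNHG15 (-1.14) was also lower. FAM167A-AS1 (3.06), the spliceosomal RNU12 (2.83, 1.53 after loess), ATF7-AS1 (2.48) and MALAT1 (1.75, 5 probes) were higher. A MALAT1 probe gave -0.34, in the other direction, and its other probes lay between 1.64 and 2.03. The antisense transcripts carry the names of the platform annotation, and their host genes were not separated here.

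The highest and lowest single genes reach beyond these lists. POFUT3, which adds fucose to proteins, had -1.32 and -5.90 in RC-K8 and -0.39 and -0.29 in RC-K8-R, a difference of 5.61, and ZNF404 had -2.15 and -5.71 against -1.33 and -1.28, a difference of 4.43. Both rest on 1 probe and on 1 very low value, that of treated RC-K8. Between them and the genes already described came the cilia motor DYNC2H1 (3.86), FRMD3 (3.39), the lysosomal protein GPR137B (3.29), the collagen COL9A3 (2.98), the homeobox factor HHEX (2.94), ASAP2 (2.88), POU3F4 (2.83) and ODF2L (2.75). ATP2A3, the calcium pump of the endoplasmic reticulum in blood cells, was blank on untreated RC-K8 and differed by 3.76, from -1.73 in treated RC-K8 to 2.03 in treated RC-K8-R.

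At the low end, ZBED2 had 0.66 and 4.09 in RC-K8 and -0.85 and -0.55 in RC-K8-R, a difference of -4.64. Most of the others there were far below the reference in RC-K8-R. VAT1L (-4.22), RNF130 (-3.72), SH3RF3 (-3.71), MICU3 (-3.58), GPD2 (-3.11) and KCNS3 (-3.10) had their lowest level on the treated RC-K8-R array, between -7.43 and -4.91. TCEAL3 (-3.91), the epithelial factor ELF3 (-3.50), RHAG (-3.30), the keratin KRT19 (-3.30), RIC3 (-3.29), CXADR (-3.28), PCSK5 (-3.22), LIMCH1 (-3.17), CNIH3 (-3.10) and PGAP4 (-3.07) were lower on both RC-K8-R arrays than on both RC-K8 arrays. Of the genes 2-fold lower, 26.7% had a mean level under -2 over the 4 arrays, against 4.58% of those higher and 8.63% of all.

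Genes read by 2 or more probes in the same direction have a spread between probes, with 339 higher and 234 lower of 2932. ZNRF1, a ubiquitin ligase, had -1.27 and 1.07 in RC-K8 and -1.43 and -1.34 in RC-K8-R, a difference of -2.37 over 4 probes with an SD of 0.13 between probes. FKBP5, a cochaperone of steroid receptors, had -0.61 and 1.64 against -0.56 and -0.59, a difference of -2.23 (SD 0.23, 2 probes). CEMIP2, which degrades hyaluronan, had -1.81 and 1.32 against -1.70 and -1.69, a difference of -3.01 (SD 0.29, 2 probes). In all of them the RC-K8 array with IL-21 was high and the other arrays lay close together.

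On the higher side MKNK2, a kinase that phosphorylates the translation factor eIF4E, differed by 2.25 over 4 probes (SD 0.34), with 1.79 and 0.36 in RC-K8 and 2.31 and 2.39 in RC-K8-R. IQSEC1 differed by 2.27 (SD 0.07, 2 probes), and ST3GAL5, which makes the ganglioside GM3, by 2.47 (SD 0.23, 2 probes). SMPD3 (2.25, 1.23 after loess), B3GALT4 (2.28), TMCC3 (2.29), HS2ST1 (2.39), THRSP (2.50), DNAJB2 (2.25) and ZBTB38 (2.23) were in this group too. Some pairs of probes disagreed in size: DLL3 (-2.85) had probes at -4.60 and -1.11, and ARHGEF25 (-2.43) at -3.98 and -0.88. The rest of the lowest genes of this kind were BTBD3 (-2.78), SASH1 (-2.57), TMPRSS3 (-2.46), CCDC80 (-2.43), COL3A1 (-2.31), SERPINA5 (-2.24), SNX19 (-2.19) and ANTXR2 (-2.08).

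The difference between the treated lines was set beside that of the untreated lines, which shares no array with it. Across the 13446 genes Pearson's r was 0.78 and Spearman's rank correlation 0.79, a description over genes, which are not independent replicates and share the range of each line's arrays. Of the 1389 genes lower with IL-21, 872 (62.8%) were also lower untreated, which is 63.7% of the 1368 lower untreated. Of the 1004 genes higher with IL-21, 316 (31.5%) were also higher untreated, which is 70.2% of the 450 higher untreated. Another 684 (68.1%) were under 2-fold untreated and 4 were lower. Those under 2-fold were seldom at 0: of all 1004 higher genes 96.2% were above 0 untreated, with a median of 0.80. Most lower genes were thus already 2-fold lower, and most higher genes were already higher by less than 2-fold.

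Medians over these genes show which array moved. The 221 higher genes with an untreated difference under 0.5 in size had median levels of 0.40 and -0.49 in RC-K8 and of 0.70 and 0.84 in RC-K8-R. The 186 lower genes of this kind had -0.48 and 0.48 in RC-K8 and -0.59 and -0.82 in RC-K8-R. In both sets the treated RC-K8 array was the one apart, although the choice of genes by these arrays fixes part of that.

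Named members of the first set were PLAU, the protease urokinase, with 2.44 and 0.01 in RC-K8 and 2.40 on both RC-K8-R arrays (difference 2.39), and the serotonin receptor HTR2B, with 5.68 and 3.17 against 5.85 and 5.88 (2.71, and 1.61 after loess). ASAP2, FAM167A-AS1, the lysosome regulator LYST (2.67), ARHGAP23 (2.52), KREMEN2 (2.40), CLIP2 (2.22), the light chain segment IGLJ3 (2.19) and LHFPL2 (2.07) were the others. IGLJ3 can share signal with other light chain segments. The second set held SOCS3, SGK1, BATF3 and PAG1, an adaptor that restrains Src kinases, with -0.52 and 1.43 against -1.0 and -0.98 (-2.41). It also held genes whose low value was on the treated RC-K8-R array, namely GPD2, SPOCK1 (-2.83), WNT5A (-2.72), IRF2 (-2.08) and ITGA9 (-2.05).

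Genes set apart by line whatever the treatment included IL2RG, KRT19, GABRE (-3.00), PDILT (-2.51), ESAM (-2.48), ITM2A (-2.47), DRD5 (-2.35), ISM2 (-2.35), PCSK5 and CXADR on the lower side. RNU12, DYNC2H1, ATF7-AS1, the lipid flippase ATP8A1 (2.35, 1.19 after loess), SECISBP2L (2.19), ARHGDIA (2.13), DOCK11 (2.11), RBM33 (2.03), COL9A3 and TEC were those on the higher side. GABRE, a chain of the GABA receptor, had 0.46 and 0.17 in RC-K8 and -2.42 and -2.83 in RC-K8-R. ARHGDIA had probes with an SD of 1.10, and differed by 0.37 on the probe with the highest mean level.

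Some line differences of the untreated arrays were small with IL-21. CD80, a costimulatory ligand, differed by 1.52 untreated and 0.49 with IL-21, with 4.26 and 5.43 in RC-K8 and 5.78 and 5.92 in RC-K8-R. After loess its difference with IL-21 turned to -0.77. IFI16, a DNA sensor, differed by 2.01 untreated and -0.14 treated (0.21 after loess), and GBP2 by 1.59 and 0.15 (-0.077 after loess). In these the treated RC-K8 array lay close to the RC-K8-R arrays. TGIF1 differed by 1.55 untreated and 0.42 treated, the latter 0.91 after loess. TIFA differed by 2.05 untreated and -0.43 treated, but the treated difference was -1.40 after loess, past 2-fold. A further TIFA probe, blank on untreated RC-K8, gave -1.41 with IL-21. In GXYLT2, PRUNE2, TMEM45A, EVA1A and SLC7A2 the untreated difference lay between -3.63 and -2.25, and the treated one between -0.22 and 0.17, or between 0.18 and 0.76 after loess. There the untreated RC-K8-R array was the low one, and each had 1 probe.

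**Figure D5:**
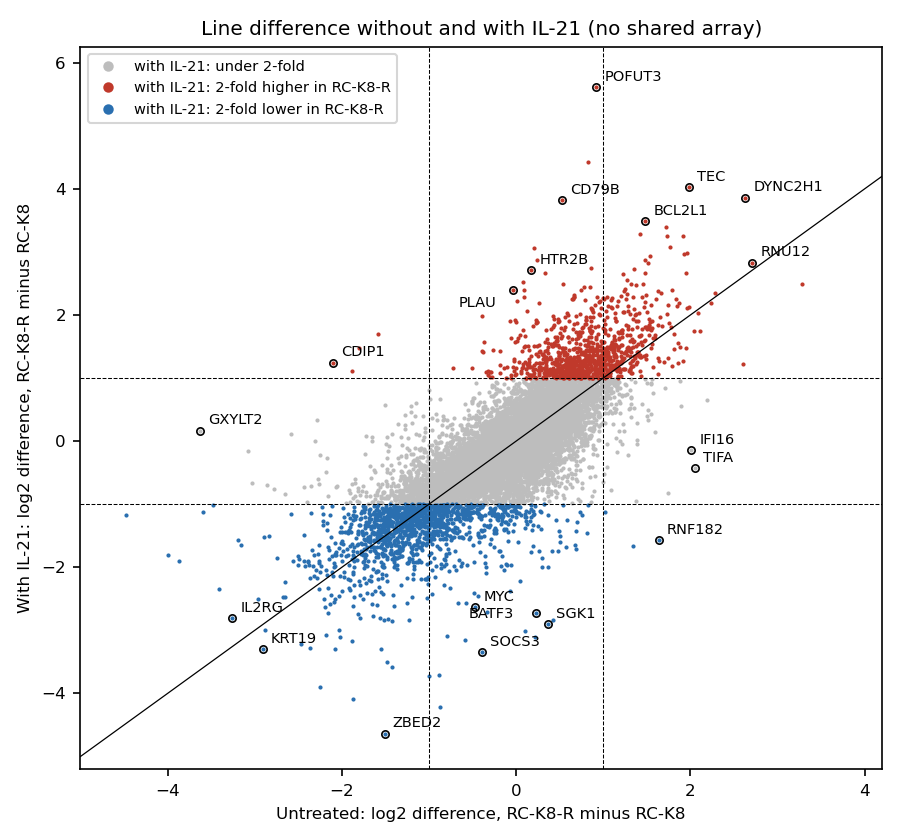
Log2 difference RC-K8-R minus RC-K8 without IL-21 (horizontal axis) and with IL-21 (vertical axis) for 13446 genes; dashed lines are 2-fold and the solid line is equality. SOCS3, SGK1, BATF3, CD79B, PLAU and HTR2B differ with IL-21 alone, IL2RG, KRT19, TEC and RNU12 differ in both, and GXYLT2 and IFI16 differ untreated alone. TIFA is marked as well, with 2.05 untreated and -0.43 with IL-21.

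Both lines carried B cell genes, and markers of other cell types were mostly below the reference. MS4A1 and CD79B stood at 5.21 and 2.18 on the RC-K8 array with IL-21 and at 7.42 and 6.00 on that of RC-K8-R. Lists of other cells had few members at 2-fold higher, COL1A1 (1.26) and ENG (1.48), and 15 lower. Medians of the difference were -0.56 for 7 T and NK cell markers, -0.73 for 6 myeloid, -0.88 for 8 epithelial, -1.24 for 7 fibroblast, 0.12 for 4 endothelial, -0.78 for 9 hepatocyte and -0.16 for 5 erythroid markers. After loess they were -0.62, -0.56, -0.36, -0.60, 0.15, 0.00 and 0.77. Treated RC-K8-R had medians of -2.94 for T and NK, -4.81 for epithelial, -6.47 for hepatocyte and -5.88 for erythroid markers, and -0.58 for myeloid markers, which were near the reference. The part of other cells in the differences was not tested.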

How the data were processed

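Sample RNA was hybridised to 2-colour Agilent arrays (4 samples, 1 array each), with the sample in Cy5 and a common human reference RNA in Cy3, per the labels. The authors deposited 1 log ratio per probe and array, taken here to be log2 (sample over reference). The sources used here do not give the log base, centring and normalization, and a natural log is possible. The direction rests on the dyes in the labels. From each array its median was subtracted, taken over the 23260 probes (of 31095) with a value on all 4 arrays. Differences were taken per probe, and the median over probes was taken per gene. The platform annotation gave 25570 probes 1 symbol and 28 several, and left 5497 unnamed here; 25541 matched a RefSeq gene of GRCh38.p14 by Entrez number. Of the 13446 genes, 9067 rest on 1 probe. The number of arrays limits the precision.

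With 1 array a side no test was run, and a fold of 2 was the threshold. The genes named were the 20 highest and lowest with all probes in 1 direction, the 15 highest and lowest with 2 or more such probes, members of 36 gene lists and 8 marker lists at 2-fold, the study's own genes, and the 5 or 10 most extreme of the genes that differed with IL-21 alone, in both states or untreated alone. Other genes, the motifs and the promoters shown were chosen after their values were seen. The members and lists were chosen with earlier results of these data known. There were 13 alternative settings, including quantile scaling, equal spread and loess (span 0.3, 3 iterations). On simulated data for this comparison, 200 of 200 genes changed by log2 2 were recovered. The simulated arrays shared a common profile with small noise and no trend with level. The simulation therefore checks the calculation and not the accuracy on the real arrays. Python 3.11.15, pandas 2.3.3, numpy 2.4.6 and statsmodels 0.14.6 were used.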

Additional observations from a re-analysis of the deposited data

Results flagged for a closer look

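In 5 genes named for it the line difference at 2-fold had opposite directions without and with IL-21, each on 1 probe, and this was not tested. CDIP1, a gene of p53-dependent cell death, differed by 1.24 with IL-21 (2.02 after loess) and by -2.10 untreated. SPAG16, a cilia gene, differed by 1.48 and -1.80. PNMT, which makes adrenaline, differed by 1.11 and -1.88. The ubiquitin ligase RNF182 differed by -1.57 and 1.64, but its value with IL-21 was -0.97 after loess, under 2-fold, and the G protein subunit GNG12 by -1.66 and 1.34. All 5 lay below the reference on all 4 arrays. CDIP1 lay between -6.06 and -3.336, RNF182 between -4.641 and -2.561 and PNMT between -4.017 and -1.919. GNG12 lay between -3.605 and -1.733 and SPAG16 between -2.724 and -0.792. In all, 7 genes had opposite directions at 2-fold.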

How the results depend on the processing

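No paired analysis was possible because each group has 1 array. The counts of 1004 higher and 1389 lower genes stayed within 1.5 times under quantile scaling (896 and 1185), equal median absolute deviation (977 and 1142), loess (942 and 1183), probe means, the brightest probe by mean ratio, probes on both arrays compared, genes with a mean ratio of -2 or more, and no centring. Restricting to genes whose 2 or more probes shared a direction left 339 and 234, with fewer genes tested, and moved the share of higher among them from 42.0% to 59.2%. Every probe as its own feature gave 1821 higher. The counts were 2424 and 3037 at 1.5-fold, 254 and 391 at 3-fold, and 1932 and 2522 if the values are natural logs. Of 279 named genes, 75 moved by more than 1.5 times after loess, 58 of them to a smaller size, and 3 of those at 2-fold reversed: HLA-DQB1 (-0.27), HLA-DRA (-0.18) and SLAMF1 (-0.0864). Smaller differences also turned, among them CD80 (-0.77) and IL21R (-0.75). The median of hepatocyte markers turned from -0.78 to 0.023 with equal median absolute deviation and to 0.0043 after loess. The cause of these changes was not tested. Signal over background is not given in the sources used here, so its limit on low ratios is unknown.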

Other observations

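Some genes could be compared on the arrays with IL-21 alone, because a probe was blank on an untreated array. Of 492 such genes 32 were 2-fold higher and 82 lower in RC-K8-R. The lower ones included the receptor kinase ROR1 (-2.99), the ganglioside enzyme ST8SIA1 (-2.67), the iron-binding LTF (-2.13), the cytokine receptor IL7R (-1.67) and the cytotoxic granule gene NKG7 (-1.56). ROR1 stood at -2.67 in treated RC-K8 and -5.66 in treated RC-K8-R. The higher ones included COL12A1 (2.40), CYTH3 (2.21), RBM4B (1.99) and the kinase FER (1.76). RBM4B stood at -0.57 in treated RC-K8 and at 1.06 and 1.42 in RC-K8-R.

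A further 868 probes had a value on the RC-K8 array with IL-21 and not on that of RC-K8-R, and 2177 the reverse. On the RC-K8-R side stood XIAP, an inhibitor of caspases (2.27), GPR183, a receptor that positions B cells (0.95), SYK, the kinase of the antigen receptor (0.73 untreated and 1.60 treated), and APAF1 (0.42). On the RC-K8 side stood RIGI, a sensor of viral RNA (0.08 untreated and -0.86 treated), and CNR2 (0.39 and 0.11). FASLG, a death receptor ligand, was on this side too, with 1.579 and 1.421 in RC-K8 and -0.037 in untreated RC-K8-R. So was IGHM, whose levels are given above. A blank is a missing value, and no difference was formed for these genes.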
